A study of Mus musculus with 9 samples.

Results

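The Wnt genes described here are 51 of the 25124 genes in a table of mouse ear skin RNA levels. They were taken by name. The rule takes every gene called Wnt, Fzd, Sfrp, Dkk or Rspo followed by a digit, and adds Lrp5, Lrp6, Axin2, Lef1, Lgr4, Lgr5, Lgr6, Notum and Wif1. It gave 19 Wnt ligands, 4 R-spondins, 10 Frizzled receptors, 2 Lrp co-receptors, 3 Lgr receptors, 10 antagonists, the pair Axin2 and Lef1, and Fzd10os, a non-coding RNA gene next to Fzd10 on the other strand. The rule uses names alone, but the set was chosen with earlier results of these data known.

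Wnt proteins are secreted, lipid-modified signals that bind a Frizzled receptor together with Lrp5 or Lrp6, which keeps beta-catenin from being degraded and lets it act with TCF and LEF factors on target genes such as Axin2. R-spondins bind Lgr4, Lgr5 or Lgr6 and keep Frizzled receptors on the cell surface. Sfrp and Wif1 proteins bind Wnts, most Dkk proteins bind Lrp5 and Lrp6, and Notum removes the lipid from Wnts. In skin the pathway is best known for forming the hair follicle, for starting its growth phase and for maintaining stem cells of the epidermis.

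All 9 libraries came from whole ear skin of C57BL/6 mice whose ears had been swabbed with Staphylococcus epidermidis strain LM087 every other day and were sampled on day 8. In 5 libraries the mice had received the bacterium alone, and in 4 they had also received anti-CTLA-4, an antibody that blocks an inhibitory receptor of T cells. All groups therefore carried the bacterium, and no untreated skin was analysed here. The labels number the libraries as replicates and do not say that each came from its own mouse, so a p-value here reflects how libraries vary, and that variation may be technical. The values are TPM, a length-scaled and depth-scaled measure of RNA level. Reads recovered from them summed to between 10213775 and 13868671 over the gene rows of a library, and ribosomal RNA rows held 30.6% to 40.2% of the listed TPM.

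The promoters of Axin2 and Lgr6, called genes in the results, and of Fzd1 are printed because members moved together and because TCF and LEF factors bind a known core motif. The motif searched was CTTTGA, or TCAAAG on the other strand, with no other motif overlapping it. Other forms of the core, such as that ending in T, were not searched. Each run is the 250 bases before the gene's start, 5′ to 3′ on the gene's strand, from RefSeq on GRCm38.p6. Axin2 is at chr11:108920099-108920348, plus strand, Lgr6 at chr1:135105277-135105526, minus strand, and Fzd1 at chr5:4758217-4758466, minus strand. Capitals mark a match of the motif.
Axin2: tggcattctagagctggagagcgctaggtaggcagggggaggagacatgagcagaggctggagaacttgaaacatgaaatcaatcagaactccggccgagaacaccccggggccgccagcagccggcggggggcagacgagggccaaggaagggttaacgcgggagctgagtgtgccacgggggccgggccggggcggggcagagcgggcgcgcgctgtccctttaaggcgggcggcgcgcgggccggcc
Lgr6: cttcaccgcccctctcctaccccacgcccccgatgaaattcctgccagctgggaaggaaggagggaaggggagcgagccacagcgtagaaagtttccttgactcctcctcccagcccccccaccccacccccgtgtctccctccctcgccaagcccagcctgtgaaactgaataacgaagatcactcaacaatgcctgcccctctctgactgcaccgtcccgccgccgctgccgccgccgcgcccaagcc
Fzd1: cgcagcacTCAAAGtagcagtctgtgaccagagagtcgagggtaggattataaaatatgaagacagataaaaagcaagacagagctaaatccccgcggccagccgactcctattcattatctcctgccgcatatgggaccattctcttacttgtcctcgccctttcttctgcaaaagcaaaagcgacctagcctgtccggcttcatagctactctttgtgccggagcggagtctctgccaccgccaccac
Of the 51 genes, 32 had a promoter in the table, and 2 of these, Dkk1 and Fzd1, held the motif, against 13.8% of all 32851 promoter windows of the same length. None of the 7 genes with an entry among the 9 that fell held it. No match says only that these letters are not in this window. The median GC content was 67.4% in the 32 windows and 52.4% in all.

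With anti-CTLA-4, 9 of the 41 Wnt genes that could be tested fell and 0 rose (limma, adjusted p under 0.05). The 9 were the ligands Wnt2b, Wnt3a, Wnt7b and Wnt10b, the receptors Fzd10, Lrp5 and Lgr6, the secreted antagonist Wif1 and the target gene Axin2. Over all 15704 genes tested, 4.48% fell and 7.16% rose. At an unadjusted p under 0.05, 18 Wnt genes were lower and 1, Sfrp1, was higher, against 2012 and 2133 of all genes. A fit by limma voom on the recovered reads, chosen after seeing the data, called 13 lower (the same 9 with Fzd6, Fzd7, Fzd9 and Lgr5) and 1 higher, again Sfrp1, against 7.25% and 11.7% of all genes. Tested genes had at least 1 TPM in at least 4 libraries, and fold changes are on the log2(TPM + 1) scale, which understates the change of genes with low TPM. Fold changes are anti-CTLA-4 minus the bacterium alone. In whole tissue, fewer cells of a type and less RNA per cell cannot be told apart.

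The shift was small and went mostly one way. The mean was lower with anti-CTLA-4 for 34 of the 41 tested Wnt genes (82.9%), against 53.0% of all genes, and the median log2 fold change was -0.21 against -0.014. In 13 Wnt genes the TPM ranges of the groups were fully separate, all 13 lower with anti-CTLA-4, where 6.39% of all genes were lower and 8.02% higher without overlap. These 13 were the 9 called genes with Fzd6, Fzd7, Rspo1 and Lgr5. Only 4 genes, Lgr6, Wnt2b, Wnt7b and Axin2, kept their call when any 1 of the 9 libraries was left out. The number of Wnt genes that fell dropped to 4 when bacterium-alone replicate 2 or anti-CTLA-4 replicate 1 was missing. It was 5 when bacterium-alone replicate 1 or 4, or anti-CTLA-4 replicate 2 or 4, was missing. The share of all genes that fell was 2.26% and 2.16% in the fits that gave 4, and between 2.16% and 4.53% over all 9 such fits, against 4.48% with every library. Leaving out replicate 3 of the first group gave 6, replicate 5 of the first group 7, and replicate 3 of the second group 8.

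**Figure D1:**
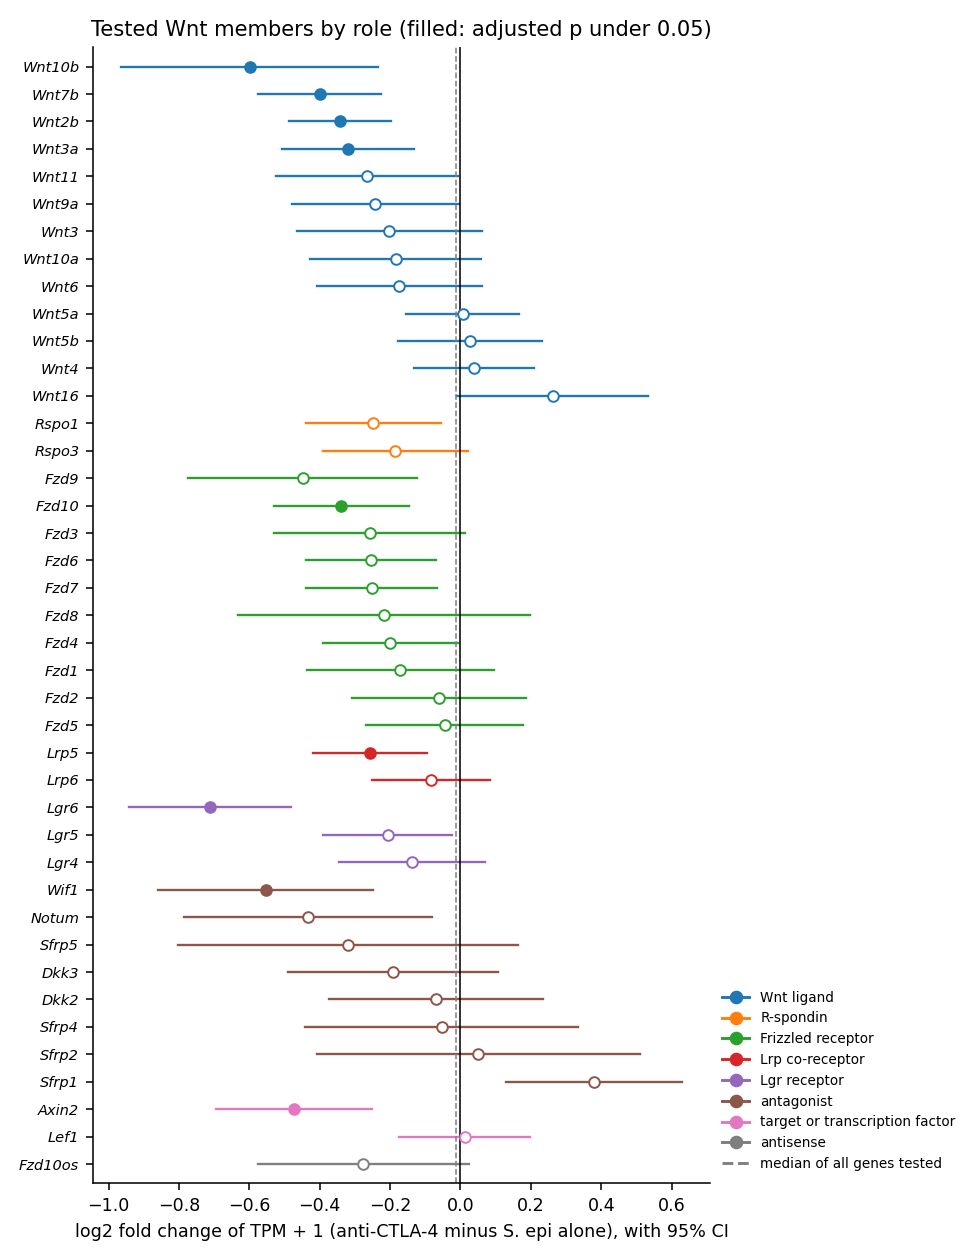
Log2 fold change (anti-CTLA-4 minus the bacterium alone, log2(TPM + 1) scale) of the 41 tested Wnt genes, coloured by role, with 95% confidence intervals from limma and the median of all genes tested as a dashed line at -0.014. Points left of 0 are lower with anti-CTLA-4, as 34 of the 41 are, and filled points are the 9 called genes.

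Markers of several cell types moved with the same contrast. Of 20 genes of the hair shaft and inner root sheath, 8 were tested and 5 fell (Krt73, Hoxc13, Foxn1, Msx2 and S100a3). Their summed level was 41.7 to 67.1 TPM with the bacterium alone and 26.4 to 37.0 TPM with anti-CTLA-4, with no overlap, and none of the 20 was at 0 in all libraries. Of 10 bulge and outer root sheath genes none was called by limma, and the summed levels overlapped (841 to 1106 and 780 to 1035 TPM). Their mean was lower for 8 of the 10, with a median log2 fold change of -0.09. Dermal papilla genes (4 of 9 tested) and dermal fibroblast genes (12 of 12) had none called either. Only 1 of the 4 and 4 of the 12 had a lower mean, with median log2 fold changes of 0.19 and 0.05. Basal keratinocyte sums overlapped (6171 to 7737 and 6939 to 8178 TPM), with 1 of 8 genes lower. Most of this sum was Krt14 (means of 3371 and 3642 TPM) and Krt5 (2946 and 3277 TPM), both with a higher mean. Even so, 6 of the 8 genes had a lower mean, and the median log2 fold change was -0.19. Suprabasal sums did not overlap (21427 to 27032 and 16076 to 20604 TPM), with 3 of 8 genes lower and 1 higher. Most of this sum was Krt10, which was not called, with means of 16685 and 12600 TPM (limma adjusted p = 0.0809). In all, 7 of the 8 genes had a lower mean, and the median log2 fold change was -0.46. Sebaceous gland sums did not overlap either (1555 to 2255 and 1123 to 1488 TPM), with 1 of 6 genes lower, Scd1. Most of this sum was Scd1 itself, with means of 1701 and 1172 TPM. Elovl3 measured 96.9 and 84.3 TPM (limma adjusted p = 0.337) and Mgst1 30.6 and 30.9 TPM (limma adjusted p = 0.915), and 4 of the 6 genes had a lower mean. Skeletal muscle sums overlapped (1304 to 2066 and 1114 to 1612 TPM), with a lower mean for all 10 genes and 1 of them, Actn3, called lower. All 7 adipocyte, 5 melanocyte and 6 Schwann cell genes also had a lower mean, with median log2 fold changes of -0.23, -0.22 and -0.18. So did 6 of 8 tested cartilage genes, 4 of 8 endothelial genes and 2 of 5 tested smooth muscle and pericyte genes. In these 6 lists none was called and the sums overlapped.

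Immune cell markers had higher sums with anti-CTLA-4. T cell markers, 9 of 10 higher by limma, summed to 25.4 to 33.0 TPM with the bacterium alone and 62.0 to 86.5 TPM with anti-CTLA-4. Monocyte and macrophage markers, 8 of 9 higher, summed to 337 to 504 and 612 to 909 TPM. The part of any of these cell types in the lower Wnt gene levels was not tested.

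**Figure D2:**
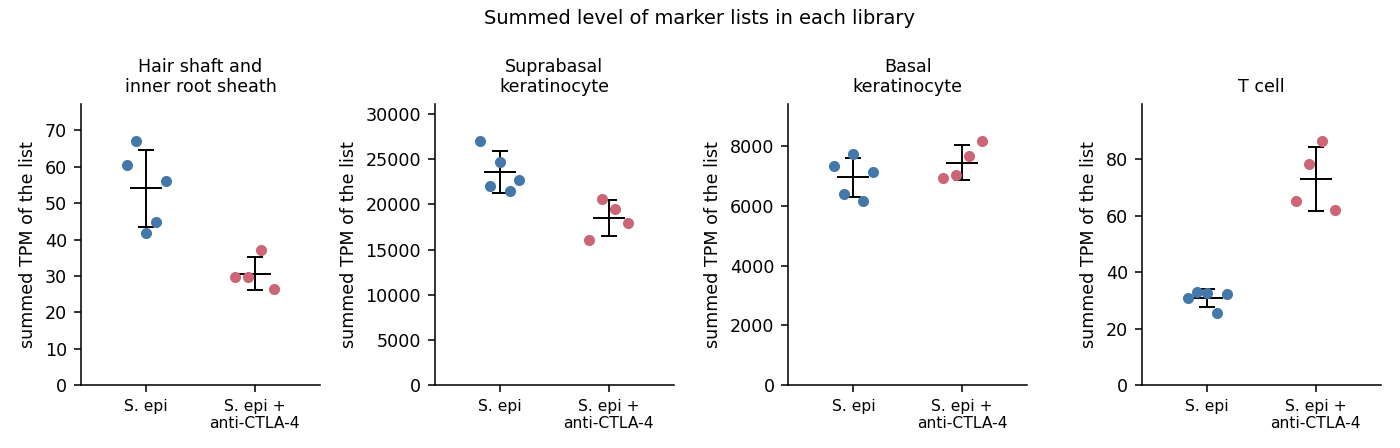
Summed TPM of the marker genes of 4 lists in each library, by group (points, libraries; bars, mean and SD; each panel has its own linear axis from 0). The hair shaft and suprabasal sums lie lower with anti-CTLA-4 and the T cell sums higher, each without overlap, while the basal keratinocyte sums overlap. Krt10 makes up most of the suprabasal sum, and Krt14 and Krt5 most of the basal sum.

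Of the 13 tested Wnt ligands, 4 fell and 9 were not called. Wnt2b, on chr3:104944805-104961709 of mm10, minus strand, is a ligand of the beta-catenin branch. Its 5 libraries with the bacterium alone had 7.40, 7.11, 7.07, 7.63 and 6.56 TPM, and the 4 with anti-CTLA-4 had 5.52, 4.90, 5.76 and 5.54 TPM. All 4 lay below the lowest library with the bacterium alone. The mean fell from 7.15 ± 0.406 TPM (SD, n = 5) to 5.43 ± 0.370 TPM (SD, n = 4), a log2 fold change of -0.34 ± 0.06 (SE; limma adjusted p = 0.0110). In GENCODE its span also holds Gm43846 on the same strand, over 932 bases, whose reads could enter this row.

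Wnt7b, an epidermal ligand on chr15:85535437-85578070, minus strand, measured 10.8, 9.998, 9.46, 9.29 and 8.31 TPM with the bacterium alone and 6.74, 6.60, 7.71 and 6.91 TPM with anti-CTLA-4. The groups were again separate, with replicate 3 of anti-CTLA-4 nearest to the other group. The means were 9.56 ± 0.906 and 6.99 ± 0.497 TPM (SD), and the log2 fold change was -0.40 ± 0.08 (SE; limma adjusted p = 0.0124). Without any 1 library the adjusted p stayed between 0.00915 and 0.0368 for Wnt7b and between 0.0125 and 0.0307 for Wnt2b.

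Wnt3a and Wnt10b had low TPM values, though Wnt3a had 68 to 158 reads per library. Wnt3a, a classical activator of beta-catenin signalling on chr11:59248042-59290751, minus strand, had 2.06, 2.15, 2.09, 2.21 and 1.80 TPM with the bacterium alone and 1.17, 1.59, 1.63 and 1.45 TPM with anti-CTLA-4. The groups did not overlap, and replicate 1 of anti-CTLA-4 was lowest. The log2 fold change was -0.32 ± 0.08 (SE; limma adjusted p = 0.0377). The call was kept only when replicate 5 of the bacterium alone or replicate 3 of anti-CTLA-4 was the library left out, and the adjusted p reached 0.0870 otherwise.

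Wnt10b, a ligand known from the growing hair follicle, lies on chr15:98771752-98778150, minus strand. It had 2.24, 2.72, 1.87, 2.12 and 1.99 TPM with the bacterium alone and 0.460, 1.61, 1.30 and 1.21 TPM with anti-CTLA-4. These values rest on few reads, 22, 30, 19, 20 and 18 against 4, 15, 14 and 14. Every library with anti-CTLA-4 was below every other library, and replicate 1, with 4 reads, was far below the rest of its group. The log2 fold change was -0.60 ± 0.16 (SE; limma adjusted p = 0.0440), and on reads by voom it was -0.96. The call remained in 1 of the 9 fits that leave out a library, that without replicate 2 of anti-CTLA-4 (adjusted p up to 0.0945 in the other fits), and it ended with a pseudocount of 0.1 or 0.5 in place of 1 and with no filter (adjusted p = 0.0684, 0.0518 and 0.0654 by limma).

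Wnt4, the ligand with the highest TPM, had 25.8, 24.7, 28.0, 25.7 and 25.9 TPM with the bacterium alone and 22.8, 28.6, 28.7 and 27.3 TPM with anti-CTLA-4. The groups overlapped widely, and the log2 fold change was 0.04 ± 0.08 (SE; limma adjusted p = 0.788), with a 95% interval of -0.13 to 0.21. Wnt5a, a ligand best known for signalling without beta-catenin, measured 8.13 ± 0.716 and 8.16 ± 0.483 TPM (SD; adjusted p = 0.969 by limma). Wnt10a, which is needed for teeth and other skin appendages, measured 14.3 ± 1.604 and 12.5 ± 1.71 TPM (limma adjusted p = 0.316). Wnt16 had the highest fold change of the ligands not called, 0.26 (2.12 and 2.75 TPM, limma adjusted p = 0.205), and Wnt11 the lowest, -0.27 (2.82 and 2.19 TPM, limma adjusted p = 0.177). Wnt9a, Wnt3 and Wnt6 had log2 fold changes of -0.24, -0.20 and -0.17. Wnt5b measured 2.82 and 2.91 TPM, but its span shares 4219 bases with Fbxl14 on the other strand. The Fbxl14 row had 2090 reads in total, against 4503 for Wnt5b.

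Neither tested R-spondin was called. Rspo1 had 1.78, 2.10, 1.55, 2.25 and 1.90 TPM with the bacterium alone and 1.39, 1.48, 1.41 and 1.51 TPM with anti-CTLA-4. The groups did not overlap, though the highest library with anti-CTLA-4 came close to the lowest without it. The log2 fold change was -0.25 ± 0.09 (SE; limma adjusted p = 0.0954). Rspo3 measured 1.17 ± 0.143 and 0.910 ± 0.167 TPM (SD; limma adjusted p = 0.233). Of the 3 receptors that R-spondins bind, Lgr6 fell and Lgr4 and Lgr5 were not called.

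Lgr6 marks stem cells of the upper hair follicle and had the largest fold change of the 41 tested genes on the log2(TPM + 1) scale. That of Wnt10b was larger on reads by voom (-0.96 against -0.83) and at a pseudocount of 0.1 (-0.98 against -0.85). It lies on chr1:134986353-135105276, minus strand. The libraries with the bacterium alone had 6.30, 6.68, 5.02, 7.39 and 5.42 TPM, and those with anti-CTLA-4 had 3.36, 3.02, 3.59 and 3.41 TPM. The groups were far apart, and the libraries with anti-CTLA-4 differed little among themselves. The mean fell from 6.16 ± 0.957 TPM (SD, n = 5) to 3.34 ± 0.240 TPM (SD, n = 4), a log2 fold change of -0.71 ± 0.10 (SE; limma adjusted p = 0.00407). Leaving out 1 library gave adjusted p-values between 0.00365 and 0.0155.

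Lgr5, a marker of stem cells in the lower hair follicle, stood near the lower limit of the test. It had 1.17, 1.18, 1.153, 1.27 and 1.12 TPM with the bacterium alone and 0.717, 0.971, 1.05 and 0.830 TPM with anti-CTLA-4. The groups did not overlap, with replicate 3 of anti-CTLA-4 closest to the rest. The log2 fold change was -0.21 ± 0.08 (SE; limma adjusted p = 0.138), while voom on the reads called it (adjusted p = 0.0126). Its span shares 12469 bases with A930009A15Rik on the other strand, a row with 180 reads against 2035 for Lgr5.

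Lgr4, the broadly expressed receptor of this trio, had 10.7, 13.8, 11.4, 14.8 and 12.3 TPM with the bacterium alone and 11.1, 10.5, 12.1 and 11.5 TPM with anti-CTLA-4. The groups overlapped, and the log2 fold change was -0.14 ± 0.09 (SE; limma adjusted p = 0.386). Whether the change of Lgr6 differs from that of Lgr4 or Lgr5 was not tested.

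**Figure D3:**
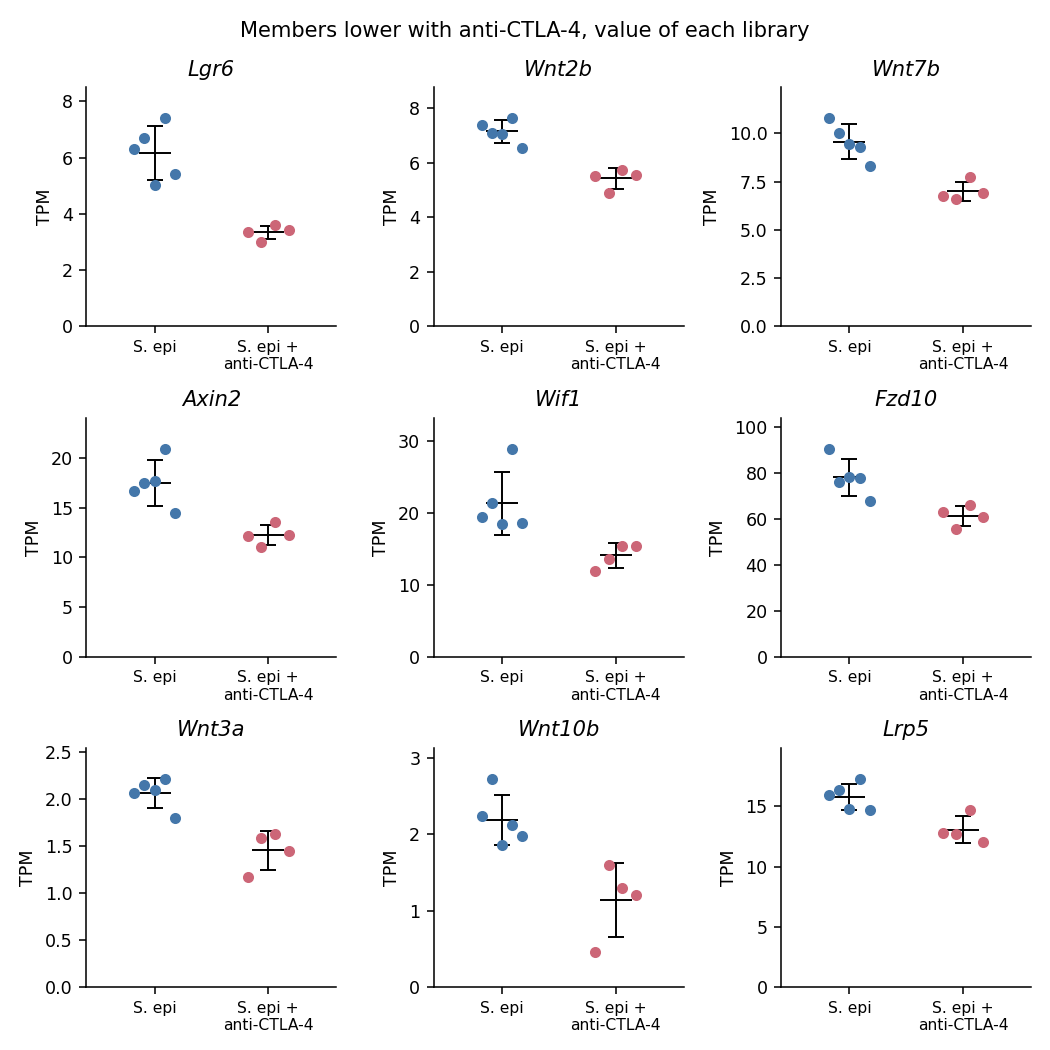
TPM in each library of the 9 Wnt genes that fell (points, libraries; lines and bars, mean and SD; each panel has its own axis). In every panel the 4 anti-CTLA-4 libraries lie below the 5 with the bacterium alone.

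All 10 Frizzled receptors, the surface proteins that bind Wnts, were tested and had a lower mean with anti-CTLA-4, but Fzd10 alone was called. Fzd10, on chr5:128601106-128604093, plus strand, measured 90.3, 75.8, 78.1, 77.5 and 67.8 TPM with the bacterium alone and 62.8, 55.5, 66.0 and 60.9 TPM with anti-CTLA-4. The groups were separate by a narrow gap, between replicate 5 of the one and replicate 3 of the other. The mean fell from 77.9 ± 8.08 to 61.3 ± 4.41 TPM (SD), a log2 fold change of -0.34 ± 0.09 (SE; limma adjusted p = 0.0332). The call was kept only when bacterium-alone replicate 5 or anti-CTLA-4 replicate 3 was left out, and the adjusted p reached 0.0821 otherwise. The neighbouring Fzd10os, 419 bases away on the other strand, measured 3.95 and 3.08 TPM (log2 fold change -0.28, limma adjusted p = 0.222).

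Fzd9, Fzd6 and Fzd7 came closest to the threshold of those not called. Fzd9 had 60.6, 63.9, 47.4, 78.9 and 50.2 TPM with the bacterium alone and 43.2, 37.6, 43.1 and 49.4 TPM with anti-CTLA-4 (log2 fold change -0.45 ± 0.14, SE; limma adjusted p = 0.0794). The groups overlapped through replicate 3 of the one and replicate 4 of the other, and without the former the limma adjusted p was 0.0421. Fzd6, known for orienting hair follicles through planar cell polarity, had 25.98, 27.3, 24.2, 29.1 and 24.4 TPM against 18.8, 22.6, 23.9 and 21.997 TPM (-0.25 ± 0.08, limma adjusted p = 0.0804). Fzd7 had 60.9, 66.3, 63.5, 74.8 and 58.9 TPM against 49.8, 51.1, 58.5 and 57.5 TPM (-0.25 ± 0.08, limma adjusted p = 0.0837). Fzd6 and Fzd7 did not overlap between groups, but their nearest libraries were close.

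Fzd1, the Frizzled gene with the highest TPM, had 108, 116, 106, 141 and 90.5 TPM with the bacterium alone and 100, 89.0, 110 and 96.3 TPM with anti-CTLA-4. The groups overlapped, and the log2 fold change was -0.17 ± 0.12 (SE; limma adjusted p = 0.403). Fzd2, Fzd3, Fzd4, Fzd5 and Fzd8 had log2 fold changes of -0.06, -0.26, -0.20, -0.05 and -0.22, none called by limma. Fzd4, best known for vessel growth, was the one of these at an unadjusted p under 0.05 (18.7 ± 1.40 and 16.2 ± 1.97 TPM, SD; limma adjusted p = 0.175).

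Lrp5 and Lrp6 are the paired co-receptors that join Wnt and Frizzled. Lrp5, on chr19:3584825-3686564, minus strand, had 15.9, 16.4, 14.8, 17.3 and 14.7 TPM with the bacterium alone and 12.8, 12.7, 14.7 and 12.04 TPM with anti-CTLA-4. Replicate 3 of anti-CTLA-4 almost met the lowest library of the other group, and the rest were well below. The mean fell from 15.8 ± 1.07 to 13.1 ± 1.14 TPM (SD), a log2 fold change of -0.26 ± 0.07 (SE; limma adjusted p = 0.0480). The call remained in 1 of 9 fits with a library left out, that without replicate 3 of anti-CTLA-4, and the adjusted p reached 0.126 in the others. It also ended with eBayes without trend (0.0542), with a filter of 0.5 TPM (0.0503) and with no filter (0.0611). Lrp6 had 19.1, 19.8, 18.7, 22.9 and 18.0 TPM against 17.8, 17.8, 19.9 and 18.4 TPM. Its groups overlapped, with a log2 fold change of -0.08 ± 0.08 (SE; limma adjusted p = 0.529), and the difference between the co-receptors was not tested.

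Of the 8 tested antagonists, Wif1 fell and the other 7 were not called. Wif1, a secreted protein that binds Wnts, lies on chr10:121034004-121100642, plus strand. It had 19.4, 21.4, 18.4, 28.9 and 18.6 TPM with the bacterium alone and 11.9, 13.6, 15.4 and 15.5 TPM with anti-CTLA-4. The groups did not overlap, and replicate 4 of the bacterium alone stood above the rest. The mean fell from 21.3 ± 4.37 to 14.1 ± 1.71 TPM (SD), a log2 fold change of -0.55 ± 0.14 (SE; limma adjusted p = 0.0305). Without replicate 4 of the bacterium alone the adjusted p was 0.0270. The call ended when bacterium-alone replicate 2, or anti-CTLA-4 replicate 1 or 2, was left out (adjusted p up to 0.0786).

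Sfrp1, which also binds Wnts, was the antagonist with the highest fold change. It had 11.6, 9.23, 10.3, 10.4 and 9.94 TPM with the bacterium alone and 13.3, 10.8, 14.8 and 16.4 TPM with anti-CTLA-4. Replicates 1, 3 and 4 of anti-CTLA-4 were above all other libraries, and replicate 2 was within the range of the bacterium alone. The means were 10.3 ± 0.859 and 13.8 ± 2.39 TPM (SD), and the log2 fold change was 0.38 ± 0.11 (SE; limma adjusted p = 0.0570). It passed the threshold without replicate 2 of anti-CTLA-4 (adjusted p = 0.0186) and in voom on the reads (adjusted p = 0.0111).

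Notum, the enzyme that removes the lipid from Wnts and is itself a target gene of the pathway, had 3.61, 4.78, 4.73, 5.49 and 4.005 TPM with the bacterium alone and 2.82, 2.04, 3.71 and 3.99 TPM with anti-CTLA-4. The groups overlapped at the low end of the bacterium alone and the high end of anti-CTLA-4. The log2 fold change was -0.43 ± 0.16 (SE; limma adjusted p = 0.111). In GENCODE the 7048-base span of Notum shares 3273 bases with the antisense gene Myadml2os and 1681 with Notumos. Reads of either could enter the Notum row, which had 21 to 58 reads per library. Sfrp2 varied widely between libraries, with 10.8, 23.5, 17.6, 23.8 and 16.9 TPM against 17.5, 21.8, 18.9 and 16.5 TPM. Its group with the bacterium alone enclosed the other, and the log2 fold change was 0.05 ± 0.20 (SE; limma adjusted p = 0.904). Sfrp5, Sfrp4, Dkk3 and Dkk2 had log2 fold changes of -0.32, -0.05, -0.19 and -0.07, with limma adjusted p-values of 0.388, 0.878, 0.404 and 0.790.

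Axin2, a scaffold of the complex that degrades beta-catenin and a widely used readout of the pathway, fell with anti-CTLA-4. It lies on chr11:108920349-108950781, plus strand, and had 16.7, 17.5, 17.7, 20.9 and 14.4 TPM with the bacterium alone and 12.1, 11.04, 13.6 and 12.2 TPM with anti-CTLA-4. The groups did not overlap, and replicate 5 of the bacterium alone was the nearest to the other group. The mean fell from 17.4 ± 2.32 TPM (SD, n = 5) to 12.2 ± 1.04 TPM (SD, n = 4), a log2 fold change of -0.47 ± 0.10 (SE; limma adjusted p = 0.0165). With a library left out the adjusted p lay between 0.00918 and 0.0471. Its span also holds an annotated antisense gene, Gm11670, in GENCODE, whose reads could enter this row. Lef1, a transcription factor that pairs with beta-catenin, measured 1.43 ± 0.184 and 1.45 ± 0.114 TPM (SD; log2 fold change 0.01 ± 0.08, SE; limma adjusted p = 0.946).

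**Figure D4:**
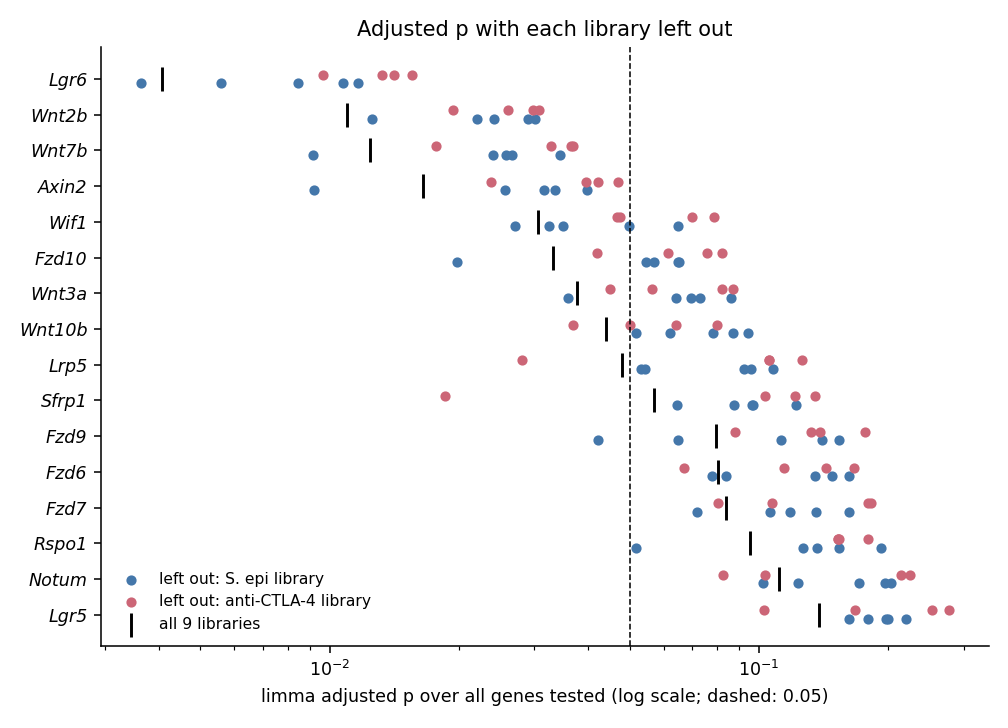
Adjusted p-values from limma (log10 axis) for the 16 tested Wnt genes with the smallest p, with all 9 libraries (bars) and with each library left out in turn (points, coloured by its group). Lgr6, Wnt2b, Wnt7b and Axin2 stay under the threshold of 0.05 (dashed) in all 9 such fits, and the other 5 called genes cross it in at least 3.

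Some libraries ranked high or low for most of the 9 called genes. With the bacterium alone, replicate 4 was highest for 6 of the 9 and replicate 5 lowest for 6. With anti-CTLA-4, replicate 3 was highest for 7 and replicate 2 lowest for 5. Replicate 4 of the bacterium alone also had the highest marker sums of the 9 libraries for many lists, but not all. These were bulge and outer root sheath (1106 TPM), skeletal muscle (2066 TPM), sebaceous gland (2255 TPM), cartilage (339 TPM) and adipocyte (225 TPM). Melanocyte (26.8 TPM), Schwann cell (137 TPM) and endothelial (40.9 TPM) sums were highest there too. Its basal keratinocyte (6171 TPM) and T cell (25.4 TPM) sums were the lowest. The median TPM of the tested genes was highest in anti-CTLA-4 replicate 3 (10.8) and next in bacterium-alone replicate 4 (10.7).

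The rest of the pathway is a list of 65 genes for secretion, receptor turnover, the intracellular relay and feedback. It was also chosen with earlier results of these data known. Of the 65 genes, 62 were tested, 6 fell and 0 rose, again against 4.48% and 7.16% of all genes. At an unadjusted p under 0.05, 18 were lower and 0 higher, where 12.8% of all genes were lower and 13.6% higher. By voom 13 were lower and 0 higher, against 7.25% and 11.7% of all genes. The mean was lower for 59 of the 62 (95.2%), against 53.0% of all genes, and the median log2 fold change was -0.17, against -0.014. Ctnnbip1, which binds beta-catenin and blocks its contact with TCF factors, fell from 46.4 ± 5.87 to 31.4 ± 4.66 TPM (SD; log2 fold change -0.55 ± 0.12, SE; limma adjusted p = 0.0171) and kept its call in all 9 fits with a library left out.

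The feedback inhibitors Nkd1 and Nkd2, which act on Dishevelled, had log2 fold changes of -0.47 and -0.59 (limma adjusted p = 0.0381 and 0.0339). Vangl2, a planar cell polarity protein, Mcc and the kinase gene Csnk1e changed by -0.35, -0.37 and -0.36 (limma adjusted p = 0.0252, 0.0358 and 0.0438). Without 1 library the number called in this list ranged from 1 (missing bacterium-alone replicate 1 or 2, or anti-CTLA-4 replicate 1 or 4) to 11 (without replicate 3 of anti-CTLA-4), while the share of all genes that fell ranged from 2.16% to 4.53% over these 9 fits. It was 2 with bacterium-alone replicate 4 or anti-CTLA-4 replicate 2 missing. Ctnnb1, the gene of beta-catenin itself, measured 83.1 ± 4.26 and 79.8 ± 4.14 TPM (SD; log2 fold change -0.06, limma adjusted p = 0.585), and the TCF gene Tcf7 measured 5.48 and 6.00 TPM (limma adjusted p = 0.598). The TCF genes Tcf7l1 and Tcf7l2 had lower means. Tcf7l1 measured 4.88 and 4.02 TPM (log2 fold change -0.22, limma adjusted p = 0.140), and voom called it (adjusted p = 0.0409). Tcf7l2 measured 10.2 and 9.58 TPM (log2 fold change -0.09, limma adjusted p = 0.544).

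Levels could not be compared between these genes from TPM as deposited. Within each library, each value multiplied by the listed gene length was a whole multiple of 1 constant, in 100% of the 6376 to 6833 low values checked (within 0.1 reads), against 18.9% to 20.0% with lengths shuffled between genes. The listed length is the genomic span with introns, so a gene with long introns has a low TPM for the same reads. Genes lying inside others never had more reads than the outer gene, in 136 of 136 pairs on the same strand and 109 of 109 on opposite strands, as when reads over the whole gene body are counted on both strands.

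By TPM, Fzd1 ranked first among the Wnt genes with a mean of 106 TPM over the 9 libraries, and 6 Frizzled genes, Fzd1, Fzd2, Fzd7, Fzd8, Fzd9 and Fzd10, have a single exon. By reads per kilobase of the longest coding transcript in GENCODE M21, which 50 of the 51 matched, Wif1 ranked first with 823 reads per kilobase. Lrp5 (449), Lrp6 (385), Lgr4 (359), Dkk2 (313) and Fzd6 (280) followed, and Fzd1, at 173, ranked 10. Reads from introns are counted here too, which can raise this measure for genes with long introns, so neither scale gives transcript levels. Differences between the groups within a gene share 1 length, which enters their fold changes only through the pseudocount. Length also acts on the TPM filter and on the eBayes trend. Rspo4, with 159 reads in total over 31741 bases, was not tested, while Wnt10b, with 156 over 6398 bases, was.

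**Figure D5:**
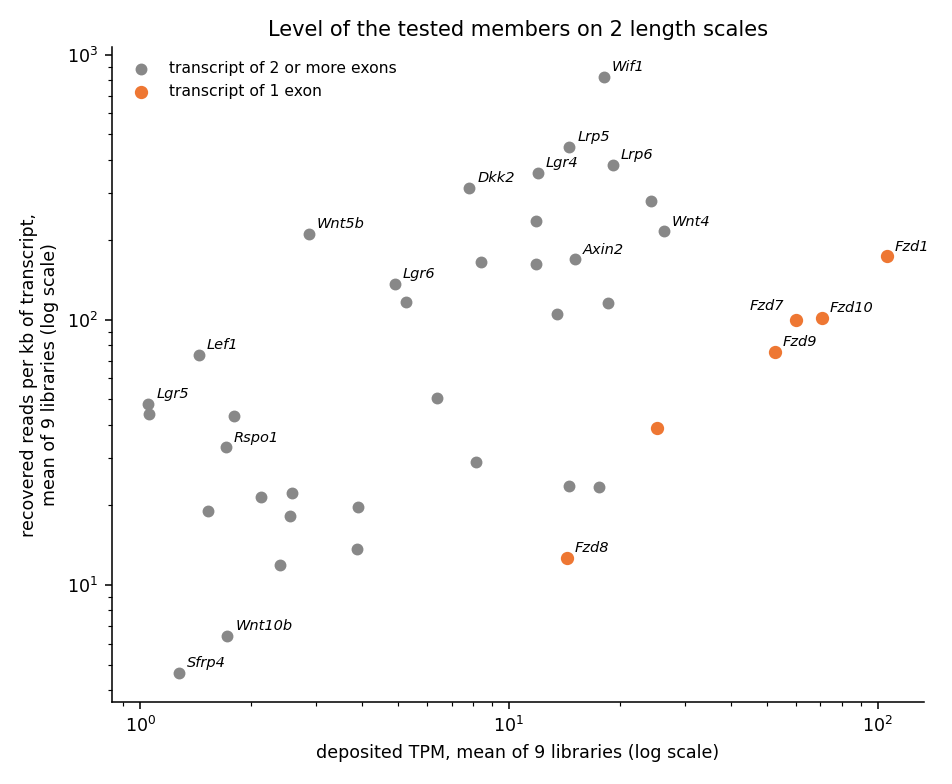
Mean TPM over the 9 libraries (x, log10 axis) against mean recovered reads per kilobase of transcript (y, log10 axis) of the tested Wnt genes with a matched transcript, with single-exon genes in orange. Fzd1 is farthest right at 106 TPM, while Wif1 is at the top at 823 reads per kilobase.

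The other 10 Wnt genes were under the level needed for the test. They were Wnt1, Wnt2, Wnt7a, Wnt8a, Wnt8b, Wnt9b, Rspo2, Rspo4, Dkk1 and Dkk4, with means of 0 to 0.864 TPM and at most 27 reads in any library. Dkk1, an inhibitor of Lrp5 and Lrp6, had 0 reads in all 9 libraries, which allows up to 3 reads each, or 0.458 to 0.611 TPM, by counting error alone. Rspo2, an R-spondin known from the hair follicle, had 7 to 17 reads per library. In a fit with no filter none of the 9 genes that had a value above 0 was called, the lowest limma adjusted p being 0.336, for Rspo4. That fit called 7 Wnt genes lower of 50, and 0 higher, where 2.42% of all genes were lower, 4.48% higher and 6.9% either.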

How the data were processed

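RNA of whole ear skin was sequenced in 9 libraries, 5 and 4 per group, with groups and replicate numbers taken from the sample titles. The authors deposited TPM values per gene, rounded to 3 decimals, with mm10 positions. The submitters' processing notes name DESeq2, HOMER and STAR, without a version or role. The counting behind the TPM was worked out from the values and is not stated in the labels.

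A two-sided limma test (version 3.58.1, R 4.3.3; lmFit, eBayes with trend, no covariate) was run on log2(TPM + 1). It covered the 15704 genes that reached 1 TPM in 4 or more libraries, with Benjamini-Hochberg adjustment across all 15704 and a threshold of 0.05. The procedure was tested on simulated data. Reads were recovered as TPM times span divided by the library's constant, and voom was run on them. The reads over gene rows count a read once for each gene it overlaps, so they are not library sizes. Intervals from 0 reads cover counting error only.

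Genes named with every library's value are those called, then those with the smallest p up to 16, and the gene with the highest TPM of each role. The members, gene lists and marker lists were chosen with earlier results of these data known. Alternatives were other pseudocounts, filters, scalings and variance settings, the replicate block, protein-coding genes alone, a threshold of 0.1 and leaving out each library.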

Additional observations from a re-analysis of the deposited data

Results flagged for a closer look

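In 4 of 82 groups of values (41 genes in 2 groups), 1 library lay far from the others by Dixon's test at the 95% level, which chance alone does in about 1 in 20 groups. Wif1 had 28.9 TPM in replicate 4 of the bacterium alone, where the next library had 21.4 TPM. The same replicate had 2.18 TPM of Sfrp4 (next 1.17 TPM) and 1.42 TPM of Rspo3 (next 1.14 TPM). Wnt5b had 3.57 TPM in replicate 3 of anti-CTLA-4, where the next library had 2.75 TPM. Of the 4 genes, Wif1 was called.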

How the results depend on the processing

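Lgr6 and Axin2 were called in all 24 alternatives, and Wnt2b and Wnt7b in all but the replicate block. The 9 Wnt genes that fell became 15 with quantile normalization and 13 with voom on reads, and between 4 and 8 with 1 library left out. The 0 that rose became 1 (Sfrp1) under quantile normalization, a common median, a total without the 50 most abundant genes, robust eBayes, protein-coding genes alone, a threshold of 0.1 and voom, and 0 to 1 with a library left out. Over all genes, 1828 calls became 2743 with quantile normalization, 2854 at a threshold of 0.1, 2972 with voom, and 1190 to 1763 with a library left out. The 1124 higher and 704 lower genes became 1314 and 1429 with quantile normalization, 1302 and 1313 at a common median, and 1205 and 1306 without the 50 most abundant genes. The 6 other pathway genes became 2 with no filter, 18 with quantile normalization, 15 at a common median, 13 without the 50 most abundant genes, 11 at a threshold of 0.1, 13 with voom, and 1 to 11 with a library left out. Sfrp2 changed sign without replicate 1 of the bacterium alone (-0.12) and without replicate 2 of anti-CTLA-4 (-0.022), within a range of -0.12 to 0.15 over the fits with a library left out. The cause of these changes was not tested.

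Replicate numbers 1 to 4 occur in both groups, and the numbers alone do not show whether they pair the libraries. Same-numbered libraries had correlations of their deviations of -0.00855, 0.0180, -0.0910 and -0.0933, and none correlated best with its own number. Such weak values show no shared deviation by number, but they cannot settle whether the libraries were paired. With the replicate block, 2 Wnt genes (Axin2 and Lgr6) and 0 other pathway genes fell, and 681 genes were called, 593 higher and 88 lower (0.560% of all genes lower). Depth limits Wnt10b most among the called genes, with 4 to 30 reads per library.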
